A study of Mus musculus with 6 samples.

Results

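Semaphorins and their receptors, the plexins and neuropilins, were examined in the cortex of wildtype and Zmiz1-KO mice at postnatal day 7. All genes of the deposited table whose symbol names a semaphorin of class 3 to 7, a plexin A, B, C or D, or neuropilin 1 or 2 were taken, which gave 31 of 24972 genes. These were 20 semaphorins, 9 plexins and 2 neuropilins, and all 31 had values high enough to be tested. RNA was sequenced from 3 wildtype libraries (Zmiz1f/f, with both Zmiz1 alleles floxed and no Cre named) and 3 Zmiz1-KO libraries (Zmiz1f/f;Emx1Cre). The floxed alleles are thus shared by both groups, and the Cre carried by the second is driven from Emx1, a gene of the progenitors that form cortical projection neurons and most cortical astrocytes. Inhibitory neurons, endothelium, microglia and meninges arise elsewhere and are not expected to carry the deletion. The study describes dissected cortices, whereas a label speaks of isolated progenitors. Markers of projection neurons, inhibitory neurons, glia, vessels and meninges all had values above 0, as in whole tissue.

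Semaphorins are secreted or membrane-bound guidance cues that share an extracellular sema domain. Secreted class 3 members generally bind a neuropilin, which has no signaling domain of its own and pairs with a plexin A, while members of the other classes bind plexins directly. Plexins act inside the cell on small GTPases, and in the developing cortex they steer growing axons, orient dendrites, prune spines and synapses, and guide migrating neurons and growing vessels.

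Zmiz1 itself was checked first. Normalized counts of 7836 ± 339 were found in wildtype and of 9794 ± 143 under the label Zmiz1-KO (mean ± SD of 3 libraries each), and the targeted gene thus had more, not fewer, counts where the label says it was deleted (log2 fold change 0.32, limma adjusted p = 0.00125). Since the table does not resolve exons, reads from the deleted part could not be told apart, and the second group is called the knockout-labelled libraries, by its label only. Emx1, the gene that drives the Cre, fell from 763 ± 67.6 to 529 ± 55.1 normalized counts in these libraries (SD, n = 3 per group, log2 fold change -0.53, limma adjusted p = 0.0150). A Cre is named for this group only, and the part of the Cre allele in this difference was not tested. Each library's sum divided by the value of 1 read among low genes, a rough guide to counted reads, ran from 15494889 to 17858391. High values did not lie near multiples of that value, so the true depth is not known. Xist showed that wildtype replicate 3 and knockout-labelled replicate 2 were female (25307 and 24403 normalized counts, against 12.9 to 57.3 in the others). Each group thus held libraries of both sexes. How many animals went into a library is not given, and p values therefore measure the spread between these libraries.

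To place the genes by abundance, normalized counts were divided by the kilobases of exon of each gene. The 31 genes spanned a 64.9-fold range of wildtype level, from Plxna1 with 1846 ± 64.4 normalized counts per kb (SD, n = 3) to Sema3b with 28.5 ± 3.86 (SD, n = 3). Of the 30 neighbouring pairs in this order, 21 had ranges over the 6 libraries that overlapped, so most neighbours in the order did not differ beyond their spread. Plexins were abundant as a family. Plxna1, a coreceptor for secreted semaphorins, held the first place, Plxnd1, the direct receptor of Sema3e, had 1255 ± 37.1 per kb, and Plxna3 had 879 ± 39.2. Plxnb3 was the exception among the plexins at 35.2 ± 3.91 per kb. The secreted class 3 ligands lay at the lower end. Their highest wildtype level was that of Sema3c, 242 ± 2.48 per kb, followed by Sema3f at 232 ± 3.49, and Sema3d, Sema3g and Sema3b were all under 50 per kb in every library. The membrane-bound ligands reached higher, with Sema7a at 1779 ± 147 per kb, Sema4g at 1240 ± 33.5 and Sema6b at 1152 ± 68.7. Of the neuropilins, Nrp1, through which Sema3a acts, had 642 ± 58.2 per kb and Nrp2, through which Sema3f acts, had 350 ± 43.6 (SD, n = 3 throughout).

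**Figure D1:**
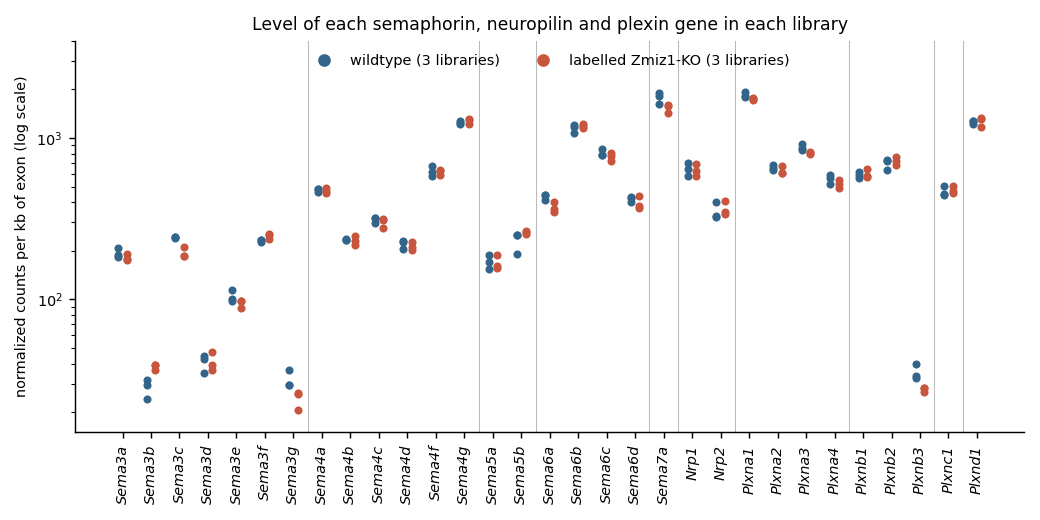
Normalized counts per kb of exon (log scale) of the 31 genes, with 1 point per library for 3 wildtype and 3 knockout-labelled libraries, ordered by class. Class 3 semaphorins lie below most plexins, and the pair of groups overlaps or nearly overlaps in most genes.

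Promoter sequences are shown for Sema7a and Plxna3, members with lower values in the knockout-labelled libraries whose 250 bases before the RefSeq start (GRCm38.p6) overlap no annotated exon. Those of Sema3c, Sema3g and Plxnb3 overlap exons of their own genes and are not shown. Capitals mark each GC box, the letters GGGCGG on either strand.
Sema7a, chr9:57939862-57940111, plus strand: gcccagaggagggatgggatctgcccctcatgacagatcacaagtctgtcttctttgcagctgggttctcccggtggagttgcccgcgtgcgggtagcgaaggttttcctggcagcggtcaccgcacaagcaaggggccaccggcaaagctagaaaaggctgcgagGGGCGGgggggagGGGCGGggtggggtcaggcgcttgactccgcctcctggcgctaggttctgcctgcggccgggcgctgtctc
Plxna3, chrX:74328816-74329065, plus strand: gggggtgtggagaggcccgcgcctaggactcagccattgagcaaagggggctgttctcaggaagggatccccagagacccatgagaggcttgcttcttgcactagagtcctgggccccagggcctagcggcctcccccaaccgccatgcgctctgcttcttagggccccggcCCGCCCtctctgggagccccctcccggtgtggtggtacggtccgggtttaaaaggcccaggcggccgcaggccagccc

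In Sema7a the GC boxes begin 84 and 71 bases before the start, and in Plxna3 1 begins 78 bases before it. Windows of the same length were also counted whether or not they overlap exons. Of these 37, from 26 of the 31 genes, 27 (73.0%) held a GC box, against 42.6% of the windows of all protein-coding genes. Sema6a and Plxna1, also lower in the knockout-labelled libraries, had no window. No window of these genes held TATAAA, which 11.6% of the windows of protein-coding genes did. The letters TGANTCA, bound by AP-1, were in 3 of the 37 windows (8.11%, against 6.13%), TGGGAA, the core bound by RBPJ, in 6 (16.2%, against 20.9%), and CANNTG, the E-box, in 19 (51.4%, against 62.8%). GTCTAGAC, a paired SMAD box, was in none (against 0.183%). In Sema7a and Plxna3 neither TGANTCA nor TGGGAA was found.

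Few of these genes differed between the groups, and the differences were small. Of the 31, 1 passed an adjusted p of 0.05 (limma, adjusted over the 15800 genes tested), where 0.411% of all tested genes did and 0.247% did so with lower values. It was Sema3c, which was lower in the knockout-labelled libraries. In 10 of the 31 genes all 3 values of one group exceeded all 3 of the other, against 16.3% of all tested genes. These were Sema3c, Sema3g, Sema6a, Sema7a, Plxna1, Plxna3 and Plxnb3, lower in the knockout-labelled libraries, and Sema3b, Sema3f and Sema5b, higher there. The background was 8.16% of tested genes without overlap and lower, and 8.10% without overlap and higher. At an unadjusted p of 0.05 (limma) 8 of the 31 passed, 7 of them lower and 1 higher, where 11.0% of all tested genes passed, 5.84% with lower and 5.13% with higher values. Log2 fold changes had a median of -0.03 over the 31 genes and -0.00018 over all tested genes. The median absolute value was 0.06 and 0.07. With single libraries left out, the groups of 11 to 16 of the 31 genes (35.5 to 51.6%) did not overlap. In the same libraries this held for 24 to 31.4% of all tested genes. Both shares were highest without knockout-labelled replicate 2 (51.6% against 31.4%).

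**Figure D2:**
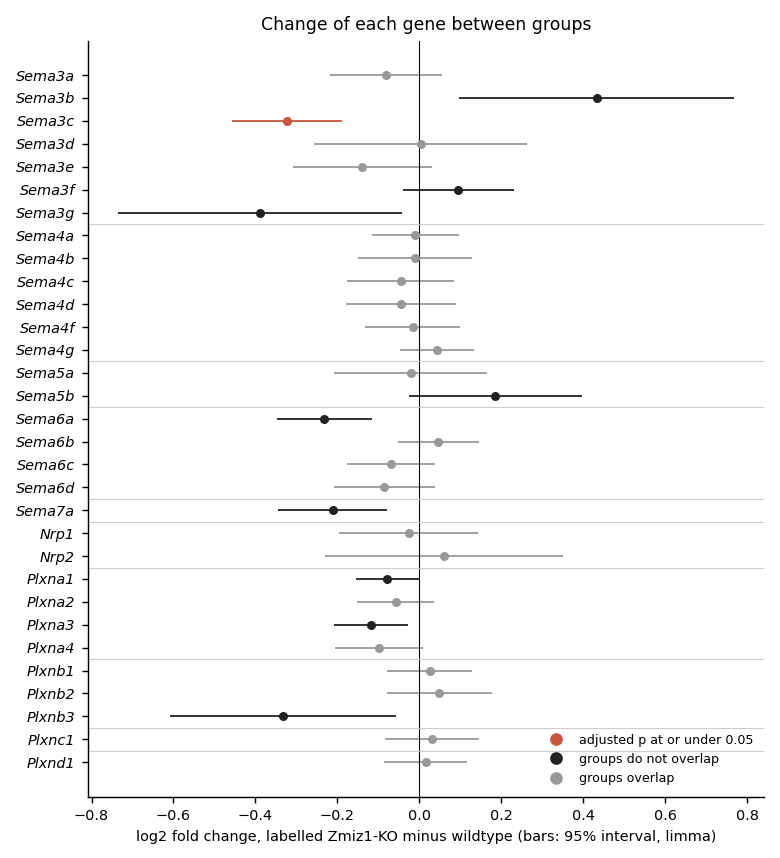
Log2 fold change of each gene, knockout-labelled libraries minus wildtype, with its 95% interval from limma (n = 3 per group). Sema3c (-0.32) is the gene past an adjusted p of 0.05, and the 6 class 4 semaphorins lie between -0.05 and 0.04.

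Among the secreted ligands, Sema3c, which attracts or repels axons according to the cell and is a cue for callosal axons, stood at 1334, 1338 and 1313 normalized counts in replicates 1, 2 and 3 of wildtype. It had 1014, 1158 and 1018 in the corresponding knockout-labelled replicates. Every library of the second group lay below every wildtype library, and the wildtype values lay close together. Sema3c fell from 1328 ± 13.6 to 1063 ± 81.8 (SD, n = 3 per group), a decrease by 20.1% (log2 fold change -0.32, 95% interval -0.46 to -0.19, limma adjusted p = 0.0307). The direction held with each library left out, as it must where groups do not overlap, but the call did not. Sema3c passed when knockout-labelled replicate 2 was left out (limma adjusted p = 0.00513). It did not pass without wildtype replicate 1 (0.112), 2 (0.0667) or 3 (0.0722), or without knockout-labelled replicate 1 (0.212) or 3 (0.239), nor without robust estimation of the variance (0.102). Sema3c lies on chromosome 5 of GRCm38 from 17574281 to 17730268, and none of its 75-base stretches occurs in the transcripts of another gene.

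The other class 3 genes spread to either side. Sema3b had the largest fold among the genes that were higher, with 92.6, 122 and 112 normalized counts in wildtype, against 139, 150 and 150 in the knockout-labelled libraries. Its log2 fold change was 0.43 ± 0.16 (SE from limma, whose adjusted p was 0.307). Sema3g, a ligand made mainly by endothelial cells, had 165, 134 and 134 in wildtype, against 119, 118 and 94.0 in the knockout-labelled libraries. Its log2 fold change was -0.39 ± 0.16 (SE from limma, whose adjusted p was 0.382). Both genes stood at low counts and wide intervals, 0.10 to 0.77 for Sema3b and -0.73 to -0.04 for Sema3g, so that a change from small to large could not be told apart. Sema3f, the Nrp2 ligand that prunes dendritic spines, had 832, 853 and 856 in wildtype, against 927, 867 and 920 in the other group, a log2 fold change of 0.09 ± 0.064 (SE from limma, whose adjusted p was 0.637). Sema3a, a repellent for cortical axons, had a log2 fold change of -0.08, Sema3e, the Plxnd1 ligand, one of -0.14, and Sema3d one of 0.0026. All 3 had overlapping groups.

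The membrane-bound ligands of class 6 and 7 gave 2 further genes that were lower without overlap, of which Sema6a stood nearer the threshold. Sema6a, which binds plexins A2 and A4, had 3313, 3077 and 3300 normalized counts in wildtype, against 2983, 2689 and 2588 in the knockout-labelled libraries. The lowest wildtype value was above the highest of the other group, and the log2 fold change was -0.23 ± 0.054 (95% interval -0.35 to -0.12, SE from limma, whose adjusted p was 0.0944). Sema7a, a lipid-anchored semaphorin that binds plexin C1 and integrins, had 6275, 5331 and 5993 in wildtype, against 5199, 4719 and 5258 in the knockout-labelled libraries. The groups were separated by a small gap, between wildtype replicate 2 and knockout-labelled replicate 3. Its log2 fold change was -0.21 ± 0.061 (95% interval -0.35 to -0.08, SE from limma, whose adjusted p was 0.218), and without wildtype replicate 2 it passed the threshold at -0.28 (limma adjusted p = 0.0253). Sema7a lies on chromosome 9 from 57940112 to 57962865. The direction of both genes held with every library left out, as it must where groups do not overlap. For the same reason an exact permutation test gave p = 0.1 for each of the 10 genes without overlap. It is the smallest p that 3 against 3 libraries allow, so neither result adds to the lack of overlap.

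Sema6b, Sema6c and Sema6d had overlapping groups and log2 fold changes of 0.05, -0.07 and -0.09. Sema6b, the most abundant of class 6 per kb, had 4786, 4263 and 4660 normalized counts in wildtype, against 4809, 4598 and 4733 in the other group. The class 5 genes encode transmembrane proteins with thrombospondin repeats. Sema5a, at 1847 ± 183 and 1819 ± 183 normalized counts (SD, n = 3 per group), had a log2 fold change of -0.02. Sema5b had 886, 1164 and 1164 in wildtype, against 1178, 1238 and 1208 in the knockout-labelled libraries, a log2 fold change of 0.19 ± 0.096 (SE from limma, whose adjusted p was 0.523). Its groups did not overlap, but wildtype replicate 1 stood far below the other 5 libraries, and without it the log2 fold change was 0.05.

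Class 4, whose member Sema4d is the ligand of plexin B1, showed little difference between the groups. None of its 6 genes passed, none had groups without overlap and none reached an unadjusted p of 0.05 (limma). Log2 fold changes ran from -0.05 to 0.04, and the 95% intervals of all 6 lay between -0.18 and 0.13, so larger changes were outside them. Sema4g, the most abundant, had 5519, 5813 and 5597 normalized counts in wildtype, against 5904, 5552 and 5984 in the knockout-labelled libraries. Part of the reads of Sema4c may be those of a gene on the opposite strand, since 5.28% of its 75-base stretches occur in D430040D24Rik and the library kit does not mark strand.

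**Figure D3:**
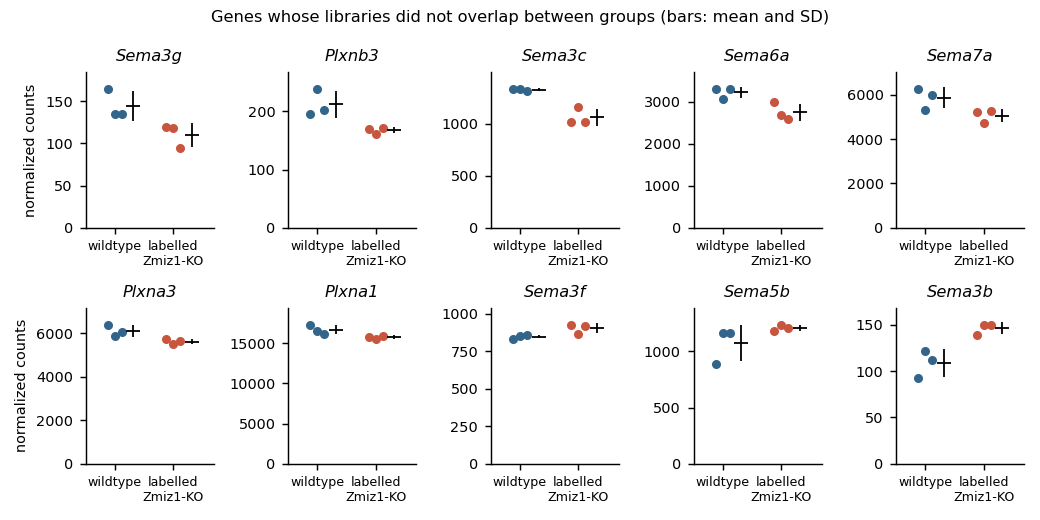
Normalized counts of the 10 genes whose groups did not overlap, with 1 point per library and the mean and SD beside them, axes starting at 0. Sema3c has wildtype values close together (1313 to 1338), and Sema5b has 1 low wildtype library (886).

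Among the receptors, the 4 plexin A genes, which signal for secreted and class 6 semaphorins, all had negative log2 fold changes, from -0.12 to -0.06, and kept that sign with every library left out. For Plxna1 and Plxna3, whose groups did not overlap, that sign could not have changed. None of the 4 passed over all tested genes (limma adjusted p from 0.295 to 0.688). Plxna1 had 17324, 16495 and 16202 normalized counts in wildtype, against 15822, 15572 and 15962 in the knockout-labelled libraries, a log2 fold change of -0.08 ± 0.037 (SE from limma, whose adjusted p was 0.446). The groups did not overlap. Of the stretches of Plxna1, 5.12% are shared with Gm26811 on the opposite strand. Plxna3, which with Nrp2 receives Sema3f, had 6398, 5865 and 6038 in wildtype, against 5719, 5496 and 5637 in the other group, a log2 fold change of -0.12 ± 0.042 (SE from limma, whose adjusted p was 0.295). Plxna2 and Plxna4, receptors of Sema6a, had overlapping groups and log2 fold changes of -0.06 and -0.10.

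Plexin B1 and B2, receptors of class 4 semaphorins, had log2 fold changes of 0.03 and 0.05 and overlapping groups, with 95% intervals between -0.08 and 0.18. Plxnb2 had 4154, 4809 and 4755 normalized counts in wildtype, against 4717, 4456 and 4998 in the knockout-labelled libraries. Plxnb3, a receptor of Sema5a known from the oligodendrocyte lineage, had 196, 239 and 202 in wildtype, against 171, 161 and 171 in the other group. All values of the second group were below those of wildtype, with a log2 fold change of -0.33 ± 0.13 (SE from limma, whose adjusted p was 0.347). Plxna3 and Plxnb3 lie on chromosome X. With the sex of the library as a covariate, limma gave adjusted p = 0.333 and 0.382. Both groups held the same number of female libraries, so this covariate could not move the log2 fold changes of -0.12 and -0.33. A part of sex in them was not tested.

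Plxnc1, the receptor of Sema7a, had overlapping groups, with 3255, 3697 and 3281 normalized counts in wildtype, against 3415, 3681 and 3345 in the knockout-labelled libraries. Plxnd1 had 8848, 8373 and 8775 in wildtype, against 9176, 8078 and 9055 in the other group. Their log2 fold changes were 0.03 (95% interval -0.09 to 0.15) and 0.02 (95% interval -0.09 to 0.12). Nrp1 had 2298, 2522 and 2104 in wildtype, against 2077, 2486 and 2236 in the knockout-labelled libraries, a log2 fold change of -0.03 (95% interval -0.20 to 0.14). Nrp2 had a log2 fold change of 0.06 (95% interval -0.23 to 0.35). Both neuropilins had overlapping groups.

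The libraries also differed among themselves in these genes, apart from the group. In 12 of the 31 genes (38.7%) the library numbered 2 was the highest of its group in both groups, against 14% of all tested genes. The numbers are those of the sample titles, and the labels name nothing that libraries of equal number share. A second number in the labels is 9 for wildtype replicate 2 and 12 for knockout-labelled replicate 2. Nrp2 showed this most clearly in wildtype, with 4157 normalized counts in replicate 2 against 3355 and 3393, and had 4254 in knockout-labelled replicate 2 against 3598 and 3507. Nrp1 and Sema5a behaved likewise, with replicate 2 at 1.15 and 1.16 times the mean of the other wildtype libraries and 1.15 and 1.18 times that of the other knockout-labelled ones. For Sema3c these ratios were 1.01 and 1.14. One of these libraries was male and the other female. Among the marker lists, the library numbered 2 had the highest sum of its group in both groups for inhibitory neurons (17557 and 19857 summed normalized counts), astrocytes (42689 and 40602), microglia (5187 and 5016) and endothelium (6440 and 6687). The lead was narrow for astrocytes and microglia (knockout-labelled replicate 1 had 40375 and 5012) and for endothelium (wildtype replicate 1 had 6427). The other marker lists did not have library 2 highest in both groups. The part of cell makeup in this pattern was not tested.

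**Figure D4:**
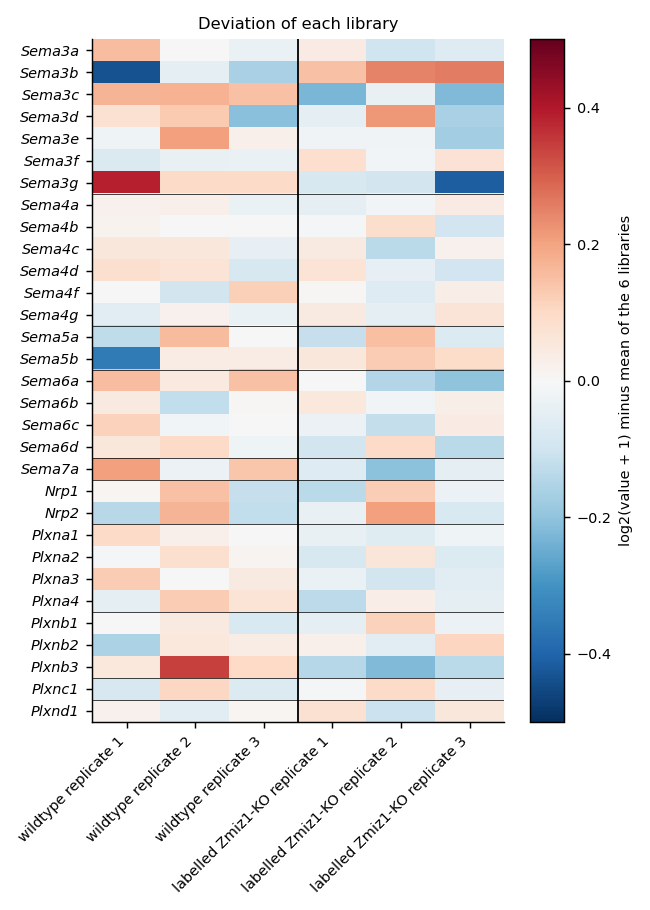
Deviation of log2(value + 1) of each gene from its mean over the 6 libraries, with libraries as columns and the 31 genes as rows by class. The library numbered 2 of each group is high for Nrp1, Nrp2, Sema3d and Sema5a, while Sema3c, Sema6a and Sema7a divide by group.

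Of 54 other genes of semaphorin signaling, 53 were tested and none passed an adjusted p of 0.05 (limma). At an unadjusted p of 0.05, 6 (11.3%) did, 5 of them lower, beside 11.0% of all tested genes. The groups of 10 (18.9%) did not overlap, 6 of them lower, beside 16.3% of all tested genes. Both shares were near the background, and the median log2 fold change was -0.02. Among 12 co-receptors and other receptors, whose summed level was 63940 to 68346 in wildtype and 59514 to 62260 in the other group, 2 had no overlap, both adhesion molecules and both lower. Chl1, which joins neuropilins in axon growth, was 21033 ± 1537 and 18289 ± 540 normalized counts (SD, n = 3 per group, log2 fold change -0.20, limma adjusted p = 0.106), and the log2 fold change of Cntn2 was -0.14 (limma adjusted p = 0.240). Among 19 GTPases and their regulators 4 had no overlap, 2 in each direction. Among 16 kinases and cytoskeletal proteins it was also 2 in each direction, with Dpysl3 and Dpysl2, collapsin response mediators that act below Sema3a, lower (log2 fold changes of -0.14 and -0.13, limma adjusted p = 0.123 and 0.331) and their relative Dpysl4 and the kinase Fes higher (0.10 and 0.27, limma adjusted p = 0.346 and 0.556). Among the 6 scaffolds and processing enzymes all groups overlapped. The genes named from these lists were picked out after their values were seen.

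Because several of these genes are made by few cell types, lists of marker genes were set beside them. In bulk tissue, fewer cells of a type and less RNA per cell cannot be told apart. For Plxnb3 and Sema6a, genes known from the oligodendrocyte lineage, 8 of 9 markers of that lineage were lower in the knockout-labelled libraries. Their summed level was 16926 to 18911 in wildtype and 15149 to 15807 in the other group, and Olig1 passed (log2 fold change -0.32, limma adjusted p = 0.00173). For Sema3g, 3 of 6 endothelial markers were lower, and their sums overlapped, at 6242 to 6440 and 6316 to 6687. For the pericytes beside them, 3 of 5 were lower, at 6461 to 8072 and 7207 to 7696. Sema7a and Sema3c are genes of cortical neurons, and the study also catalogs Sema6a with a class of cortical projection neurons. For these genes, 6 of 8 projection neuron markers were lower, but the sums overlapped, at 41696 to 45824 and 42351 to 43804. At an unadjusted p of 0.05 (limma) 3 of the 8 passed (37.5%, against 11.0% of all tested genes). Neurod2 had a log2 fold change of -0.17, and Bcl11b and Foxp2 went the other way with 0.15 and 0.34. These 3 genes were named after their values were seen, and bulk tissue does not tell which cells their counts came from. The 7 meningeal markers were all higher, with sums of 17605 to 21078 in wildtype and 22578 to 25297 in the knockout-labelled libraries, and Col1a2 passed (log2 fold change 0.32, limma adjusted p = 0.00464). Sema3b, Sema3f and Sema5b were higher in the same libraries, and so were the summed markers of inhibitory and striatal neurons. The mean sums of these 2 neuron lists were each at 122.1% of the wildtype mean, against 121.0% for the meninges. No listed marker was at 0 in all libraries, and the part of cell makeup in these differences was not tested.

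**Figure D5:**
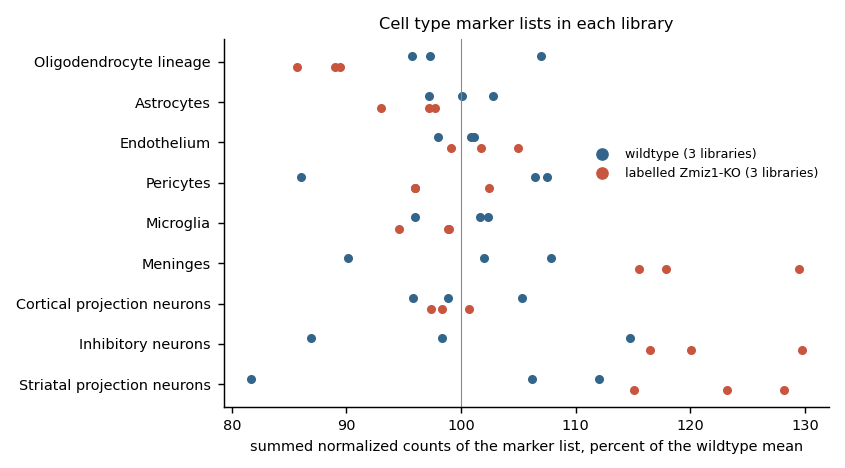
Summed normalized counts of 9 marker lists in each library, as a percent of the wildtype mean, with 3 wildtype and 3 knockout-labelled libraries. The oligodendrocyte list is at 85.7 to 89.4% in the knockout-labelled libraries, and the lists of meninges, inhibitory and striatal neurons lie above their wildtype values.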

How the data were processed

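The authors aligned reads to mm10 with STAR in Illumina BaseSpace and normalized them with DESeq2 (versions and gene annotation not given in the sources used here). They deposited 1 normalized signal value per gene and library, called normalized counts in the text. Low values lay near multiples of a step (92.3 to 94.3% within 0.1 of a whole number), but high values did not (19.7 to 20.1%), so whole reads were not recovered and no count test was run. In the 15800 genes that reached 10 in 3 or more libraries, log2(value + 1) was compared with limma (version 3.58.1, R version 4.3.3, trend and robust estimation, two-sided), with Benjamini-Hochberg adjustment over these genes. Fold changes on the log2(value + 1) scale understate those of low genes. The precision of each value rests on the depth, for which the results give only a rough guide, and on 3 libraries per group.

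Exon lengths, coordinates and shared 75-base stretches came from GENCODE M21 (GRCm38), and promoters from RefSeq. Genes, lists and tests were chosen with earlier results of these data known. By rule, values per library are given for each gene called, without overlap, or most abundant of its class, and for Sema3c and Sema6a. From the pathway and marker lists, the rule allowed at most 12 genes called or without overlap, by the size of the fold change. That order was not kept, since genes with larger fold changes were left unnamed. Genes picked out later are said to be so. Alternatives were rescaling by upper quartiles or median ratios, limma-voom, a stricter filter (10 in every library) or none, pseudocounts of 0.1 and 10, no robust estimation, the replicate number as a block, sex from Xist as a covariate, an adjusted p of 0.1, and each library left out. Leaving out both libraries numbered 2 was added after the data were seen. Python 3.11.15 and matplotlib 3.10.9 drew the figures.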

Additional observations from a re-analysis of the deposited data

How the results depend on the processing

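Of the 31 genes, 28 passed under none of the 18 alternatives, and 18 kept the sign of their change under all. The other 13, none of which passed under any alternative, changed sign under at least 1. The block, the sex covariate, the filters, no robust estimation and the threshold left each fold change unmoved, so no sign could change there. Nor could a sign change by leaving out libraries where the groups did not overlap. The number of the 31 past the threshold was 0 without robust estimation, 2 at an adjusted p of 0.1, 2 without both libraries numbered 2 and 3 under a replicate block (Sema3c, Sema6a and Sema7a), and 0 to 1 with single libraries left out. Over all tested genes it was 17, 106, 232 and 168 in the same order, and 12 to 151, lowest without knockout-labelled replicate 3 and highest without knockout-labelled replicate 2. Of the pathway genes 1 passed with the block (Dpysl3), 2 without both libraries numbered 2, and 0 to 1 with single libraries left out. Of the marker genes 8, 7 and 1 to 5 passed, against 3 in the main fit. Beside them, 168, 232 and 12 to 151 of all tested genes passed, against 65. The groups of 18 of the 31 (58.1%) did not overlap without both libraries numbered 2, beside 44.3% of all tested genes, and those of 11 to 16 (35.5 to 51.6%) with single libraries left out, beside 24 to 31.4%. The deviations of libraries with equal numbers correlated across all tested genes at -0.0051, -0.11 and -0.0063, and no library correlated best with its own number. These correlations count low and high genes alike, so they cannot decide whether the numbers pair the libraries. With the block, 168 of all tested genes passed, against 65 without it. Among the 31 genes, the same number was highest in both groups in 20 (64.5%), against 36.4% of all tested genes. Median-ratio and upper-quartile scaling changed no call among the 31, but both hardly altered the deposited values. The median-ratio factor was 1.0018 in every library, and the upper-quartile factors ran from 0.9936 to 1.0039. For these counts the cause was not tested.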

Other observations

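The remaining marker lists gave the following values. All 8 markers of inhibitory neurons were higher in the knockout-labelled libraries, with summed normalized counts of 13306 to 17557 in wildtype and 17827 to 19857. None passed over all tested genes (limma), and 6 of 8 (75%) reached an unadjusted p of 0.05, where 11.0% of all tested genes did. All 6 markers of striatal neurons were higher, with sums of 9224 to 12655 and 12993 to 14474, and 2 (33.3%) reached an unadjusted p of 0.05. Of 6 astrocyte markers 4 were lower (40370 to 42689 and 38632 to 40602), and Aqp4, named after its value was seen, passed (log2 fold change -0.29, limma adjusted p = 0.00499). Of 8 microglial markers 5 were lower (4868 to 5187 and 4797 to 5016). Of 6 choroid plexus markers 5 were lower, and their sum varied widely within each group, from 347 to 8489 in wildtype and from 432 to 4946 in the knockout-labelled libraries. Of 4 tested markers of red blood cells 3 were lower, and their sums, over 5 genes, overlapped at 8378 to 12198 and 8042 to 9117.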
